A study of Mus musculus with 6 samples.

Results

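The inward rectifier and background potassium channel genes described here are 10 genes of the mouse left ventricle, namely Kcnj2, Kcnj12, Kcnj3, Kcnj5, Kcnj8, Kcnj11, Abcc8, Abcc9, Kcnk2 and Kcnk3. They were found by gene symbol in a table of 31273 genes, and all 10 were in it. RNA was sequenced from left ventricles labelled as cardiomyocyte-specific RBM20 overexpression (3 libraries) and from left ventricles labelled as control (3 libraries). RBM20 is an RNA-binding splicing regulator of heart muscle, and the study asked what its excess does in dilated cardiomyopathy. The study's text describes the RBM20 mice as a knock-in that tamoxifen switches on in cardiomyocytes. Sample titles carry the codes cre for the overexpression libraries and cki for the control libraries, which the labels do not explain, so groups follow the genotype labels. The labels give no age, no promoter for the recombinase and no word on whether the controls carried the recombinase or received tamoxifen. Effects of RBM20, of the recombinase and of tamoxifen therefore cannot be told apart from the labels alone.

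Inward rectifiers pass potassium into the cell more easily than out of it, and they hold the resting potential of ventricular muscle near the potassium equilibrium potential. Kir2 channels carry the classical inward rectifier current, a GIRK1 and GIRK4 heteromer opens when muscarinic or adenosine receptors release G protein βγ subunits, and Kir6 pores joined to sulfonylurea receptors open when ATP falls. Two-pore channels such as TREK-1 and TASK-1 add a background outward current. Vagal slowing of the heart, ischaemic shortening of the action potential and stretch sensitivity are among the functions these channels are known for.

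Rbm20 checked the labels. In TPM, read numbers corrected for gene length and scaled to a fixed library total, it was listed at 321, 913 and 907 in RBM20 overexpression libraries, against 74.9, 90.9 and 79.5 TPM in control libraries. Overexpression replicate 1 stood apart in having the lowest Rbm20 of its group and Ddx3y, a Y-linked gene, at 88.1 TPM, while Ddx3y was 0 in the other libraries of both groups. Xist, the transcript of the inactive X chromosome, was 0.0172 TPM in that library and 34.4 to 62.6 TPM in the others. By these genes that library was male and the others female, so sex was mixed within the overexpression group only. Esr1, part of whose product is fused to tamoxifen-inducible recombinases, had 218, 53.0 and 199 TPM in RBM20 overexpression libraries and 0.415, 0.234 and 0.300 TPM in control libraries. The summed TPM of 12 cardiomyocyte markers was 46997 to 51934 in RBM20 overexpression and 48020 to 54915 in control, and none of the 12 was at 0. Of these markers 3 were called higher and 5 lower on that scale, beside 59.0% and 9.09% of all tested genes. Counted reads were estimated at 51130000 to 90310000 in RBM20 overexpression libraries and 41800000 to 70840000 in control libraries. Mitochondrially encoded transcripts took 36.7% to 41.0% of TPM in RBM20 overexpression and 48.3% to 52.0% in control.

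TPM shares a fixed total, so each difference of the 10 channel genes is given on 2 scales. The first is the deposited TPM, and the second rescales every library by the median, over genes, of its ratio to the geometric mean (the median-ratio scale). Differences are RBM20 overexpression minus control in log2(TPM + 1), tested with limma over the 12404 genes whose mean reached 1 TPM, with Benjamini-Hochberg adjustment, and called at 0.05. The median difference of all tested genes was 0.55 on the TPM scale and 0.01 on the median-ratio scale. The cardiomyocyte markers fell along with the channel genes on the median-ratio scale. They summed there to 34958 to 44249 in RBM20 overexpression and 60923 to 68767 in control. Of them, 0 were called higher and 9 of 12 lower, beside 22.2% and 24.0% of all tested genes. The part of these markers in the channel values was not tested.

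On the TPM scale 5 of the 10 channel genes fell (Kcnj3, Kcnj11, Abcc8, Abcc9 and Kcnk3), 2 rose (Kcnj5 and Kcnk2) and 3 were not called (Kcnj2, Kcnj8 and Kcnj12). Of all tested genes, 9.09% were called lower and 59.0% higher on that scale. On the median-ratio scale 7 of 10 fell, 1 rose and 2 were not called, where 24.0% of all tested genes were called lower and 22.2% higher. The RBM20 overexpression libraries lay wholly below the control libraries for 5 members and wholly above for 2 on the TPM scale, beside 10.4% and 62.1% of all tested genes. The same counts on the median-ratio scale were 7 and 1, beside 28.8% and 28.2%. All 10 members passed the filter, and in 9 the control mean alone reached 1 TPM. The median difference of the 10 members was -0.54 on the TPM scale and -1.15 on the median-ratio scale. Without overexpression replicate 1 the calls among members were 5 lower and 2 higher on the TPM scale and 7 lower and 1 higher on the median-ratio scale. In whole ventricle, fewer cells of a type and less RNA per cell cannot be told apart.

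**Figure D1:**
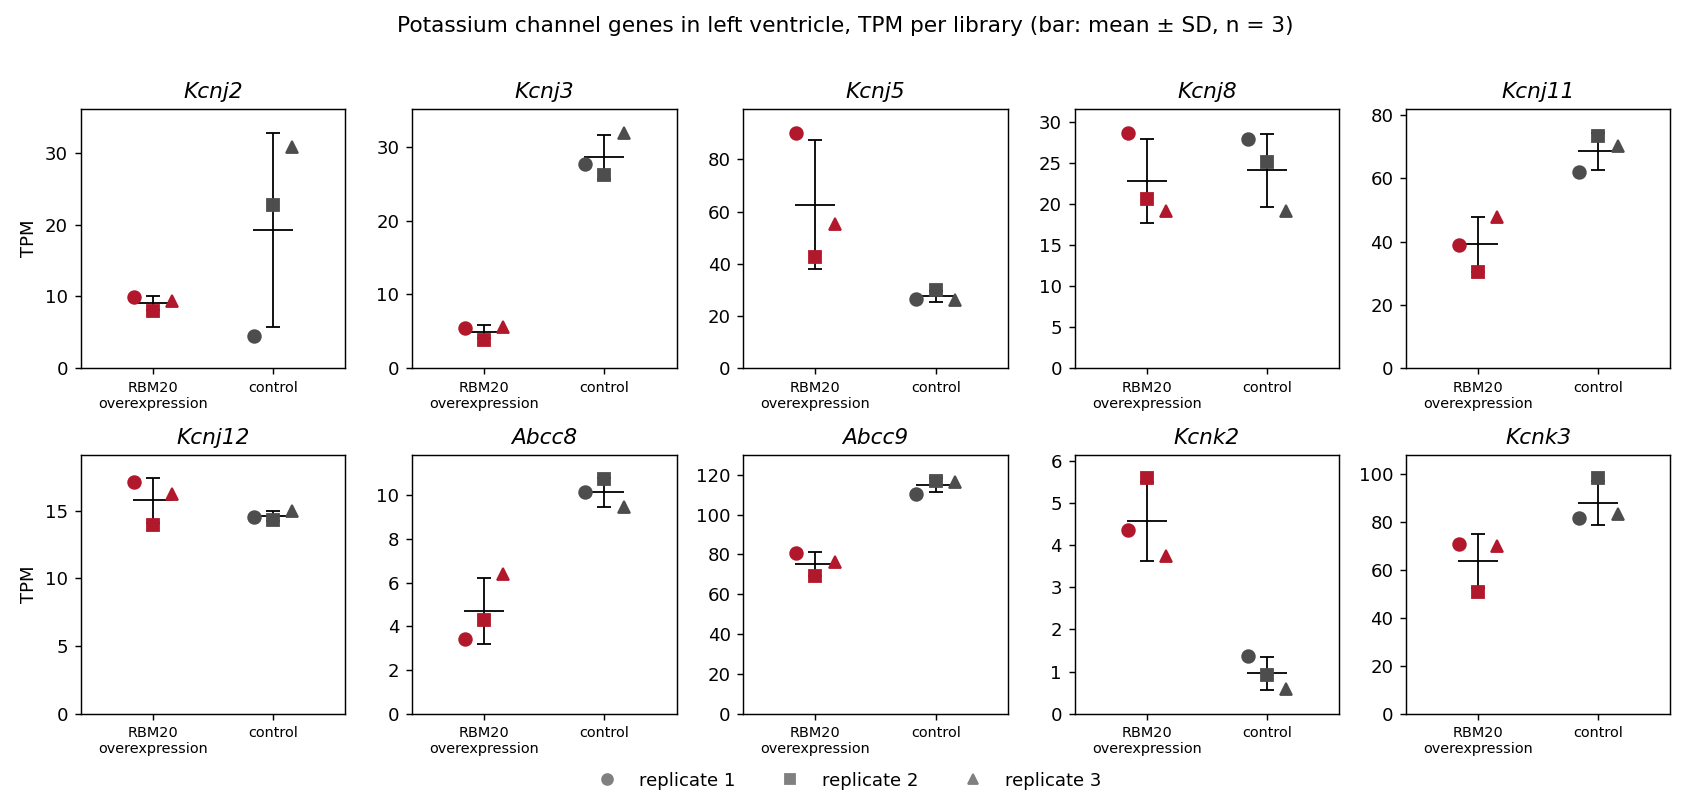
TPM (vertical axis, from 0) of each channel gene in the 3 RBM20 overexpression libraries (red, left) and the 3 control libraries (grey, right), with the mean and SD as a bar. Kcnj3 sits between 3.87 and 5.53 TPM in RBM20 overexpression against 26.2 to 32.0 TPM in control, and control replicate 1 of Kcnj2 lies apart at 4.41 TPM.

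The acetylcholine-gated channel showed the widest change in make-up, with its 2 subunits moving in opposite directions on the TPM scale. Kcnj3 encodes GIRK1, the subunit that needs a partner to reach the cell surface. It had 5.45, 3.87 and 5.53 TPM in RBM20 overexpression libraries and 27.8, 26.2 and 32.0 TPM in control libraries. Every overexpression library lay below every control library, and the mean was 5.78-fold lower (4.95 ± 0.937 TPM in RBM20 overexpression, 28.6 ± 2.995 TPM in control; SD, n = 3 each). The log2 difference was -2.32 (SE 0.156, limma adjusted p = 1.71e-05), and -2.88 on the median-ratio scale (adjusted p = 2.12e-05).

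Kcnj5 encodes GIRK4, which can form channels by itself as well as with GIRK1. It had 90.3, 42.5 and 55.1 TPM in RBM20 overexpression libraries and 26.7, 29.8 and 26.1 TPM in control libraries. All 3 overexpression libraries were above all controls, with replicate 1 far the highest. The mean was 2.28-fold higher, with a log2 difference of 1.09 (SE 0.235, limma adjusted p = 0.00342). On the median-ratio scale the groups overlapped and the difference was 0.48 (adjusted p = 0.159), which was not called. Without overexpression replicate 1 the difference was 0.80 on the TPM scale (adjusted p = 0.00203) and 0.19 on the median-ratio scale (adjusted p = 0.398).

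A share of 2 genes within a library does not depend on how libraries are scaled. Kcnj3 made up 5.69%, 8.34% and 9.12% of the summed Kcnj3 and Kcnj5 TPM in RBM20 overexpression libraries and 51.0%, 46.7% and 55.1% in control libraries. Kcnj5 transcripts were thus in large excess in every overexpression library, while both subunits were near parity in every control library. The difference of the mean shares was -43.2 percentage points (exact two-sided permutation p = 0.1, the smallest that 3 against 3 allows, and 0.25 adjusted over 5 pairs). The summed TPM of the pair overlapped between groups, at 95.7, 46.4 and 60.6 in RBM20 overexpression and 54.4, 55.9 and 58.0 in control.

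The RefSeq promoter windows of this pair are shown because its members were called in opposite directions on the TPM scale. Each holds 250 bases before and 50 after the annotated start, in build GRCm38.p6, written 5′ to 3′ along the gene's strand. Kcnj3 is at chr2:55435720-55436019 on the plus strand and Kcnj5 at chr9:32344295-32344594 on the minus strand. Capitals mark GC boxes.
Kcnj3: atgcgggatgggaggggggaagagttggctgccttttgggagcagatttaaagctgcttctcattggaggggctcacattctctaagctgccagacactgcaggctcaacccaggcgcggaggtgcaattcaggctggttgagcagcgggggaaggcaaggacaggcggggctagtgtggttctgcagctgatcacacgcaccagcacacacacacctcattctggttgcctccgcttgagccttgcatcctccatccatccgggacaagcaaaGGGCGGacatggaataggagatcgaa
Kcnj5: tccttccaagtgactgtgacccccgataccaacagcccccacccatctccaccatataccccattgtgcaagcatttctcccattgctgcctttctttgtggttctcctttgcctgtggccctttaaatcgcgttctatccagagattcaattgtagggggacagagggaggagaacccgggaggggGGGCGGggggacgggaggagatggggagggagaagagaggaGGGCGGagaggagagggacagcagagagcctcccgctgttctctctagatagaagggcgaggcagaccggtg
Both strands of 32851 windows were searched for a TATA box (TATAAA), an M-CAT element (CATTCC), an E-box (CACGTG), a GC box (GGGCGG) and an element of oestrogen-related receptors (TNAAGGTCA). These letters were in 13.6%, 14.7%, 7.15%, 35.7% and 1.28% of windows, in that order. The Kcnj3 window held 1 GC box, at 25 from the start, and the Kcnj5 window held 2, at -63 and -22, with no other of the 5 motifs in either. No matches overlapped each other in the windows printed here.

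Upstream of the channel, the list of receptors, G proteins and RGS proteins had 20 tested genes of 21. On the TPM scale 12 were called higher and 3 lower, and on the median-ratio scale 5 were higher and 6 lower. Counts called higher were near the background of 59.0% and 22.2% of all tested genes, so they say nothing particular about the list. Chrm2, the M2 muscarinic receptor through which the vagus opens this channel, had 8.96, 5.91 and 5.40 TPM in RBM20 overexpression libraries and 43.8, 51.1 and 45.1 TPM in control libraries. The groups did not overlap, and the mean was 6.91-fold lower. The log2 difference was -2.64 (SE 0.174, limma adjusted p = 1.62e-05), and -3.22 on the median-ratio scale (adjusted p = 1.44e-05). Adora1, the A1 adenosine receptor that opens the same channel, moved the other way, with 16.1, 19.6 and 13.9 TPM in RBM20 overexpression and 3.25, 4.03 and 4.16 TPM in control. Its log2 difference was 1.86 (SE 0.162, limma adjusted p = 4.67e-05), or 4.34-fold in mean TPM. On the median-ratio scale it was 1.31 (adjusted p = 0.000176).

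The regulators of the G protein cycle divided as well. Rgs6, whose product shortens the active state of the inhibitory G protein and so ends the channel's current, was 5.01-fold lower (1.47 ± 0.517 TPM in RBM20 overexpression, 7.36 ± 0.227 TPM in control; SD, n = 3 each; limma adjusted p = 9.53e-05). The log2 difference of Rgs6 was -1.78 on the TPM scale and -2.23 on the median-ratio scale (limma adjusted p = 5.80e-05 on the latter). Gnao1, Gnai1 and Gnb1, which encode G protein subunits, were 3.24-fold, 2.58-fold and 2.17-fold higher in mean TPM. All 3 were also called higher on the median-ratio scale, at log2 differences of 1.00, 0.63 and 0.48. Rgs2 was called lower on both scales (-0.998, adjusted p = 0.0417, and -1.59, adjusted p = 0.00973), although its TPM ranges overlapped at 9.74 to 20.2 in RBM20 overexpression and 14.99 to 43.1 in control.

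Since the acetylcholine-gated channel is best known from atrium and pacemaker tissue, markers of both were read beside it. The summed TPM of 11 atrial markers was 84.0 to 218 in RBM20 overexpression and 59.3 to 67.7 in control, with 3 of 9 tested genes called higher and 1 lower on the TPM scale and 1 higher and 2 lower on the median-ratio scale. Much of the spread of that sum was Myl7, an atrial myosin light chain. It had 35.4, 3.07 and 116 TPM in RBM20 overexpression libraries and 3.45, 1.08 and 3.13 TPM in control libraries. In control the largest parts of the atrial sum were Kcna5, at 23.5 to 31.2 TPM, and Stard10, at 14.4 to 15.8 TPM. In RBM20 overexpression these genes had 26.8 to 38.9 TPM and 9.51 to 14.2 TPM. Myl4, with groups apart, averaged 22.2 TPM in RBM20 overexpression and 1.19 TPM in control. It was called higher on both scales (limma adjusted p = 8.42e-05 and 0.000605). Sbk2 was called lower on both scales (limma adjusted p = 0.0102 and 0.0024). On the median-ratio scale the atrial sums overlapped, at 62.5 to 186 in RBM20 overexpression and 74.3 to 79.9 in control. The 11 conduction system markers summed to 53.3 to 60.9 TPM in RBM20 overexpression and 51.3 to 67.1 TPM in control, with Isl1 at 0. Most of that sum was Smoc2, at 33.4 to 47.0 TPM in RBM20 overexpression and 34.2 to 45.8 TPM in control. On the TPM scale 0 of 5 tested conduction genes were called higher and 1 lower. After median-ratio scaling 0 were higher and 3 lower, with sums of 42.8 to 51.9 in RBM20 overexpression and 60.6 to 84.0 in control. Beside the counts of both lists, 59.0% of all tested genes were called higher and 9.09% lower on the TPM scale. On the median-ratio scale these shares were 22.2% and 24.0%. The part of either tissue in the Kcnj3 and Kcnj5 values was not tested. By profile over the 6 libraries, the genes nearest to Kcnj3 were Slc36a2, Ttll1 and Cngb3, with root mean square differences of 0.144, 0.156 and 0.175 on the centred log2 scale.

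**Figure D2:**
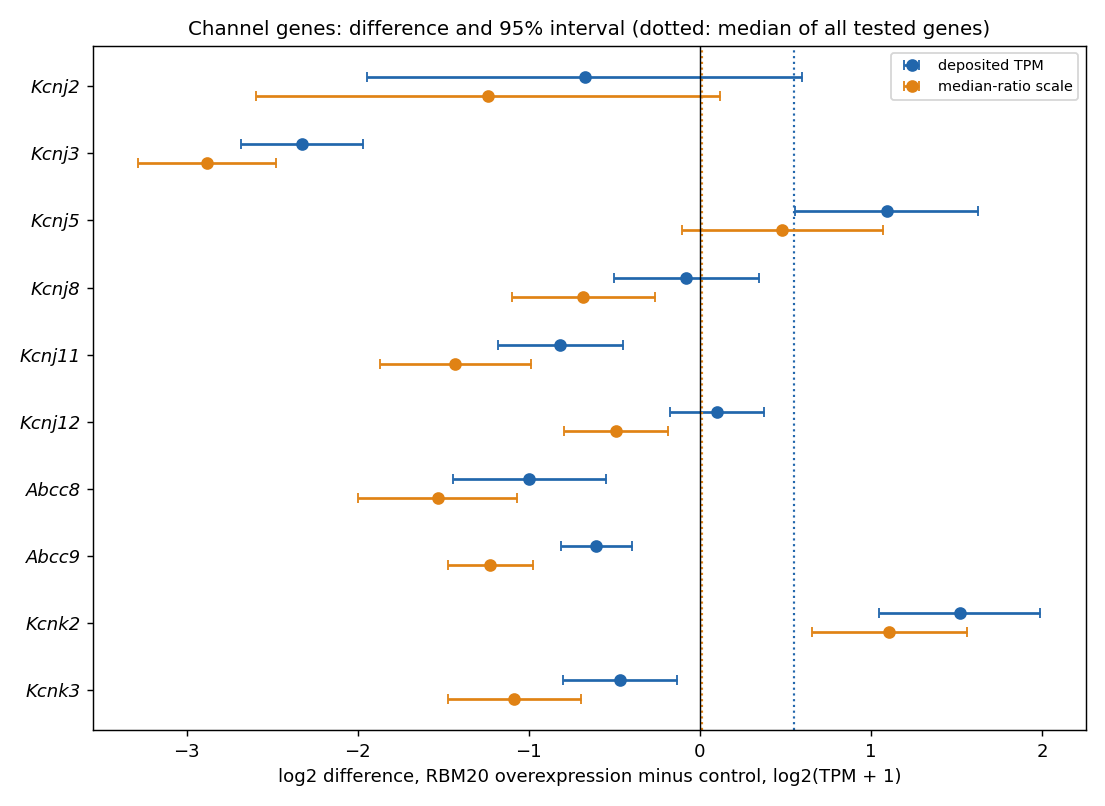
Log2 difference of RBM20 overexpression minus control (horizontal axis) with its 95% interval for the 10 channel genes, on deposited TPM (blue) and on the median-ratio scale (orange). Dotted lines mark the median of all tested genes, at 0.55 and 0.01. Kcnj3 lies farthest left on both scales, and Kcnk2 is the only member whose interval is wholly above 0 on both.

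The ATP-sensitive channel fell in 3 of its 4 genes on the TPM scale and in all 4 on the median-ratio scale. Kcnj11 encodes Kir6.2, the pore of the channel in the ventricular muscle membrane. It had 39.0, 30.4 and 47.8 TPM in RBM20 overexpression libraries and 62.1, 73.4 and 70.3 TPM in control libraries. The groups did not overlap, and the mean was 1.75-fold lower (log2 difference -0.82, SE 0.160, limma adjusted p = 0.0021; -1.43 on the median-ratio scale, adjusted p = 0.000639). Abcc9, which encodes the sulfonylurea receptor SUR2, was the most abundant of the 10 genes in both groups. Its TPM was 80.8, 69.0 and 76.1 in RBM20 overexpression and 110.7, 117.1 and 116.6 in control. These groups were also apart, with a 1.52-fold lower mean (log2 difference -0.60, SE 0.0917, adjusted p = 0.000564; -1.22 on the median-ratio scale, adjusted p = 8.86e-05).

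Abcc8 encodes SUR1, the receptor of the pancreatic beta cell channel, which mouse heart also expresses. It had 3.42, 4.30 and 6.39 TPM in RBM20 overexpression libraries and 10.2, 10.8 and 9.47 TPM in control libraries. The highest overexpression library was below the lowest control, and the mean was 2.16-fold lower (log2 difference -0.997, SE 0.196, limma adjusted p = 0.00215; -1.53 on the median-ratio scale, adjusted p = 0.000609). Kcnj8 encodes Kir6.1, the pore best known from smooth muscle and pericytes. Its TPM was 28.7, 20.6 and 19.1 in RBM20 overexpression and 27.9, 25.2 and 19.2 in control. These groups overlapped almost entirely, with a log2 difference of -0.08 (95% interval -0.50 to 0.34, adjusted p = 0.71). On the median-ratio scale Kcnj8 was called lower at -0.68 (adjusted p = 0.0168), but without overexpression replicate 2 the adjusted p was 0.0653 and without replicate 3 it was 0.0507.

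As shares within a library, Abcc8 averaged 5.89% ± 1.84 of the summed Abcc8 and Abcc9 TPM in RBM20 overexpression and 8.12% ± 0.529 in control (SD, n = 3 each), with overlapping groups (exact permutation p = 0.2). The difference was -2.23 percentage points, and -1.31 without overexpression replicate 1. Kcnj8 averaged 37.1% ± 7.49 of the summed Kcnj8 and Kcnj11 TPM in RBM20 overexpression and 26.0% ± 4.81 in control, also overlapping (exact permutation p = 0.2). SUR2 and Kir6.2 transcripts were thus the larger part of their pairs in all 6 libraries.

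Because vessel wall cells carry Kir6.1 and SUR2, their markers were read beside these genes. Without Des, which heart muscle also expresses in large amounts, the 13 pericyte and smooth muscle markers summed to 311 to 377 TPM in RBM20 overexpression and 230 to 281 TPM in control. Of 12 tested, 5 were called higher and 1 lower on the TPM scale, and 3 higher and 5 lower on the median-ratio scale, with none at 0. Among all tested genes, 59.0% were higher and 9.09% lower on the TPM scale, and 22.2% and 24.0% on the median-ratio scale. The pericyte and smooth muscle sums on the median-ratio scale overlapped, at 265 to 297 in RBM20 overexpression and 292 to 352 in control. The 12 endothelial markers summed to 885 to 966 TPM in RBM20 overexpression and 725 to 935 TPM in control, with none at 0. On the TPM scale 1 was called higher and 0 lower, beside 59.0% and 9.09% of all tested genes. The endothelial markers on the median-ratio scale, where Kcnj8 was called lower, summed to 711 to 776 in RBM20 overexpression and 920 to 1170 in control. There 0 were called higher and 4 lower, beside 22.2% and 24.0% of all tested genes. The part of these vessel wall markers in the Kcnj8 and Abcc9 values was not tested.

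The 4 genes of the ATP-sensitive channel lie as neighbouring pairs in the genome (GRCm38, GENCODE M21). Kcnj11 and Abcc8 are 3758 bases apart on chromosome 7, and Kcnj8 and Abcc9 are 16247 bases apart on chromosome 6, each pair on the minus strand. Both genes of the first pair were called lower on the TPM scale, whereas of the second only Abcc9 was; the difference between Abcc9 and Kcnj8 was not itself tested. Their promoter windows are shown for that contrast, from RefSeq in GRCm38.p6, at chr6:142571565-142571864 for Kcnj8 and chr6:142702225-142702524 for Abcc9, both on the minus strand. Capitals mark an M-CAT element and a GC box, both read on the opposite strand.
Kcnj8: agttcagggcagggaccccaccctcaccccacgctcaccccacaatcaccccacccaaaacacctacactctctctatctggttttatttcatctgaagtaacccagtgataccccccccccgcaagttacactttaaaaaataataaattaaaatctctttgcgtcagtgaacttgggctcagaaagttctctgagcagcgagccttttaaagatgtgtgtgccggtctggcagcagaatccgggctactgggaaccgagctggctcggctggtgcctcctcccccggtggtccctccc
Abcc9: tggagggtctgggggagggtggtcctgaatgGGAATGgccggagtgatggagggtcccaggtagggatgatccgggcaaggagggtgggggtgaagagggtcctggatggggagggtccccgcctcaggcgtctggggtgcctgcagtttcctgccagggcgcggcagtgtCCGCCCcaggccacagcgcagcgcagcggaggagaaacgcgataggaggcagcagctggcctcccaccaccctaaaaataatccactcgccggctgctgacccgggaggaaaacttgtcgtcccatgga
The Kcnj8 window held none of the 5 motifs. The Abcc9 window held 1 M-CAT element at -219 and 1 GC box at -79 from the start. The genes nearest to Kcnj11 by profile were Mfsd4b5, Abhd18 and Doc2g, with root mean square differences of 0.0981, 0.122 and 0.125 on the centred log2 scale.

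**Figure D3:**
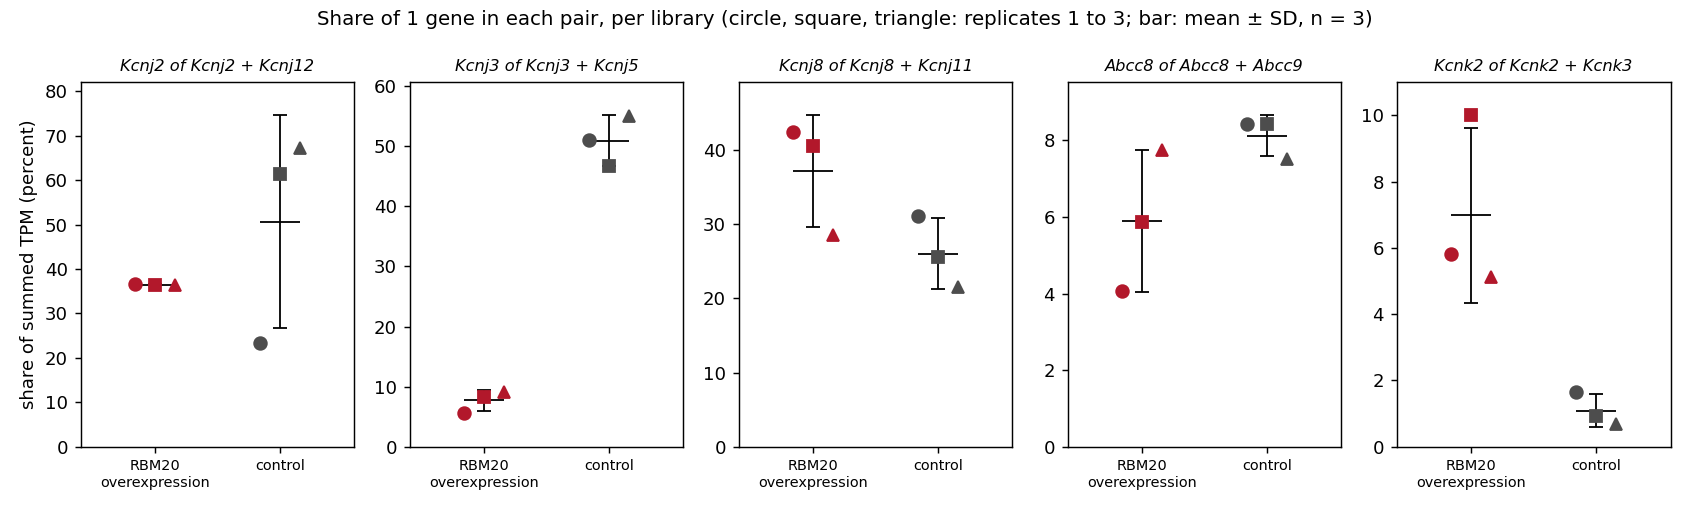
Share (percent, vertical axis, from 0) of the first gene in the summed TPM of each pair, per library, for RBM20 overexpression (red, left) and control (grey, right), with the mean and SD as a bar. The Kcnj3 share is 5.69% to 9.12% in RBM20 overexpression against 46.7% to 55.1% in control, and the Kcnj2 share is within 36.4% to 36.6% in RBM20 overexpression while control spans 23.3% to 67.3%.

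Neither gene of the classical inward rectifier was called on the TPM scale, and for Kcnj2 this rested on 1 control library. Kcnj2 encodes Kir2.1, the main subunit of the current in mouse ventricle. It had 9.90, 7.99 and 9.29 TPM in RBM20 overexpression libraries and 4.41, 22.8 and 30.8 TPM in control libraries. Control replicate 1 was below every overexpression library and the other controls were above all of them. The log2 difference was -0.67 (95% interval -1.94 to 0.60, limma adjusted p = 0.305). On the median-ratio scale it was -1.24 (adjusted p = 0.121). Each control library moved the TPM difference. Without control replicate 1 it was -1.46 (adjusted p = 0.000268), without replicate 2 it was -0.39 (adjusted p = 0.587) and without replicate 3 it was -0.18 (adjusted p = 0.783). The same values on the median-ratio scale were -2.04 (adjusted p = 0.000327), -0.98 (adjusted p = 0.284) and -0.72 (adjusted p = 0.342).

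The Kcnj2 values came from 1049, 768 and 1662 recovered reads in RBM20 overexpression libraries and 483, 3511 and 2908 in control libraries. The genes nearest to Kcnj2 by profile were Aqp7, Irs1 and Sspnos, with root mean square differences of 0.417, 0.488 and 0.488 on the centred log2 scale. Aqp7, a glycerol channel, had 2.81 TPM in control replicate 1 against 13.1 and 14.5 TPM in the other controls. Irs1, an adaptor of the insulin receptor, had 2.47 TPM there against 7.39 and 9.66 TPM. Both were chosen for their likeness to Kcnj2 over these same libraries. Their low value in control replicate 1 therefore follows from the choice and tells nothing further about that library. Rgs2, named above, was lowest among controls in replicate 1, at 14.99 TPM against 34.3 and 43.1 TPM.

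Kcnj12 encodes Kir2.2, which joins Kir2.1 in mixed channels. It had 17.1, 13.9 and 16.2 TPM in RBM20 overexpression libraries and 14.5, 14.3 and 14.999 TPM in control libraries. The groups overlapped, and the log2 difference was 0.10 (95% interval -0.17 to 0.37, limma adjusted p = 0.48). Its direction depended on scaling: on the median-ratio scale it was called lower at -0.49 (adjusted p = 0.0174), though without control replicate 3 the adjusted p was 0.0626. Kcnj2 made up 36.6%, 36.4% and 36.4% of the summed Kcnj2 and Kcnj12 TPM in RBM20 overexpression libraries and 23.3%, 61.4% and 67.3% in control libraries. The share was almost constant in RBM20 overexpression and widely spread in control, and the means did not differ beyond that spread (exact permutation p = 0.4). The difference of the mean shares was -14.2 percentage points, and it was -27.9 without control replicate 1, -8.79 without control replicate 2 and -5.85 without control replicate 3.

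Of 9 other Kir genes, Kcnj14 alone had a mean of at least 1 TPM. Kcnj14 encodes Kir2.4, a strong inward rectifier first known from neurons. It had 12.7, 18.0 and 7.82 TPM in RBM20 overexpression libraries and 0.259, 0.329 and 0.474 TPM in control libraries, from 665, 853 and 689 reads in overexpression and 14, 25 and 22 in control. Every overexpression library was far above every control, and the mean was 36.3-fold higher (log2 difference 3.29, SE 0.264, limma adjusted p = 3.34e-05; 2.91 on the median-ratio scale, adjusted p = 6.18e-05). Its control mean was 0.354 TPM, so it passed the filter only through the group where it was high. Among Kir2 genes, Kcnj14 thus reached the level of Kcnj2 in RBM20 overexpression, at means of 12.9 and 9.06 TPM with overlapping ranges, whereas in control it was far under it, at 0.354 and 19.3 TPM. Of 10 neuronal and Schwann cell markers, Chat, Th and Snap25 were among those at 0 in all libraries, and the list summed to 6.26 to 8.28 TPM in RBM20 overexpression and 5.58 to 7.78 TPM in control. Of its 3 tested genes, 0 were called higher and 1 lower on both scales. Among all tested genes, 59.0% were higher and 9.09% lower on the TPM scale, and 22.2% and 24.0% on the median-ratio scale. Kcnj1 was at 0 in all libraries, and the highest value of Kcnj15, under the filter, was 1.05 TPM in RBM20 overexpression and 0.174 TPM in control.

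The background channels moved in opposite directions. Kcnk2 encodes TREK-1, a two-pore channel opened by stretch, polyunsaturated lipids and acidosis within the cell. It had 4.37, 5.60 and 3.76 TPM in RBM20 overexpression libraries and 1.36, 0.919 and 0.582 TPM in control libraries. All overexpression libraries were above all controls, and the mean was 4.80-fold higher (log2 difference 1.52, SE 0.207, limma adjusted p = 0.000331; 1.107 on the median-ratio scale, adjusted p = 0.00265). These values rest on 304, 353 and 441 reads in RBM20 overexpression and 98, 93 and 36 reads in control, and Kcnk2 passed the filter only through overexpression, its control mean being 0.954 TPM.

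Kcnk3 encodes TASK-1, a two-pore channel closed by acid outside the cell. It had 70.7, 50.4 and 69.7 TPM in RBM20 overexpression libraries and 81.4, 98.1 and 83.3 TPM in control libraries. The groups did not overlap, and the mean was 1.38-fold lower (log2 difference -0.47, SE 0.145, limma adjusted p = 0.0195; -1.08 on the median-ratio scale, adjusted p = 0.00135). Without control replicate 2 the TPM difference was -0.38 and the adjusted p 0.0695. A transcript on the opposite strand, Gm9899, overlaps Kcnk3 and reached 11.1 TPM in RBM20 overexpression and 8.42 TPM in control, and strand use in the counting is not given in the sources used here. Kcnk2 averaged 6.98% ± 2.64 of the summed Kcnk2 and Kcnk3 TPM in RBM20 overexpression and 1.09% ± 0.496 in control (SD, n = 3 each), with no overlap (exact permutation p = 0.1).

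Kcnk2 is also known from cardiac fibroblasts, so their markers were read beside it. The 12 fibroblast markers summed to 2536 to 3158 TPM in RBM20 overexpression and 1385 to 1844 TPM in control, with none at 0. On the TPM scale 9 were called higher and 1 lower, beside 59.0% and 9.09% of all tested genes. On the median-ratio scale 7 were higher and 3 lower, beside 22.2% and 24.0%. The fibroblast sums overlapped on that scale, at 2089 to 2349 in RBM20 overexpression and 1758 to 2309 in control. Their part in the Kcnk2 difference was not tested. Of 12 other two-pore genes, only Kcnk13 and Kcnk6 were tested. Kcnk13, which encodes THIK-1, averaged 1.74 ± 0.656 TPM in RBM20 overexpression and 0.498 ± 0.225 TPM in control (SD, n = 3 each; limma adjusted p = 0.00962), and it passed the filter only through overexpression. Kcnk6, which encodes TWIK-2, averaged 5.98 ± 0.769 TPM in RBM20 overexpression and 3.75 ± 0.682 TPM in control (adjusted p = 0.0161). Neither was called on the median-ratio scale (adjusted p = 0.0758 and 0.846). Both are known from macrophage lineages, whose 12 markers summed to 813 to 1422 TPM in RBM20 overexpression and 377 to 494 TPM in control. On the TPM scale 12 were called higher and 0 lower, with none at 0, beside 59.0% of all tested genes higher. On the median-ratio scale 10 were higher and 0 lower, beside 22.2% higher. The macrophage sums on that scale were 692 to 1142 in RBM20 overexpression and 479 to 618 in control. The part of these cells was not tested.

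The order of the 10 levels changed between the groups. In RBM20 overexpression Abcc9, Kcnk3 and Kcnj5 led, at means of 75.3, 63.6 and 62.6 TPM, and neighbours among these 3 did not differ beyond their ranges, nor did Kcnj5 and the next gene, Kcnj11. Kcnj11, Kcnj8, Kcnj12 and Kcnj2 came after these at 39.1, 22.8, 15.8 and 9.06 TPM, each with a range apart from the next, and Kcnj3, Abcc8 and Kcnk2 ended the order at 4.95, 4.70 and 4.58 TPM with overlapping ranges. In control Abcc9, Kcnk3 and Kcnj11 led at 114.8, 87.6 and 68.6 TPM, each with a range apart from the next. Kcnj3, Kcnj5, Kcnj8, Kcnj2 and Kcnj12 came next at 28.6, 27.5, 24.1, 19.3 and 14.6 TPM, with neighbours overlapping, and Abcc8 and Kcnk2 were last and apart at 10.1 and 0.954 TPM. By mean, Kcnj3 thus stood below Kcnj8, Kcnj12 and Kcnj2 in RBM20 overexpression and above them in control.

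The proteins that place these channels in the membrane or bind them had 13 tested genes of 14, of which 9 were called higher and 1 lower on the TPM scale and 5 higher and 4 lower on the median-ratio scale. Beside 59.0% higher and 9.09% lower among all tested genes on the TPM scale, and 22.2% and 24.0% on the median-ratio scale, nothing particular to the list is read from these counts. Popdc3, a cAMP-binding Popeye protein whose family binds TREK-1, had 50.1, 65.1 and 53.1 TPM in RBM20 overexpression libraries and 12.2, 18.1 and 14.8 TPM in control libraries. These groups were well apart, at 3.73-fold in mean TPM (log2 difference 1.84, SE 0.159, limma adjusted p = 4.55e-05). On the median-ratio scale the difference was 1.24 (adjusted p = 0.000236). Flna, an actin crosslinker that binds Kir2.1, was 2.39-fold higher, Cask, a membrane scaffold, 2.51-fold higher, and Cav3, the muscle caveolin, 2.00-fold higher, and all 3 were called higher on both scales.

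**Figure D4:**
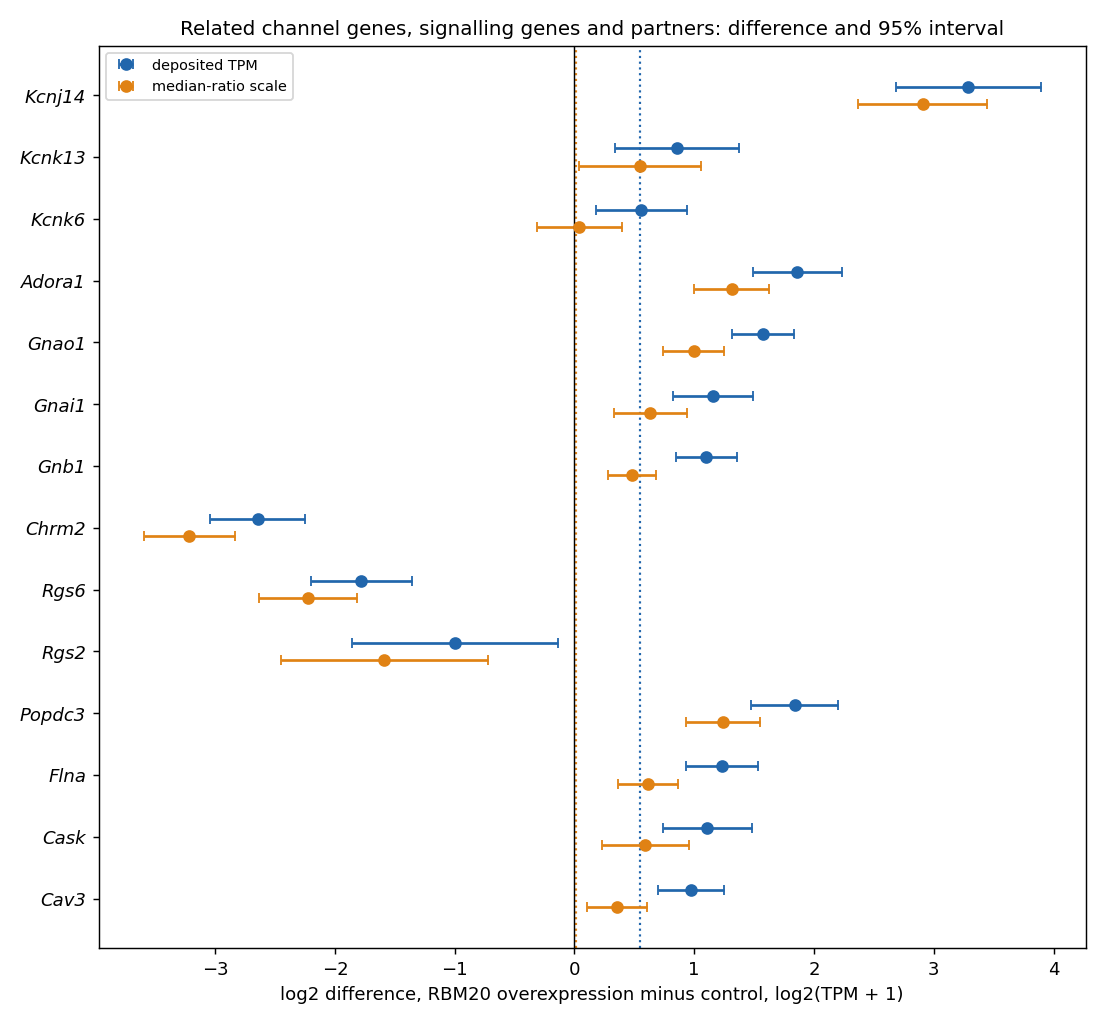
Log2 difference of RBM20 overexpression minus control (horizontal axis) with its 95% interval for related channel genes, signalling genes and binding partners named in the text, on deposited TPM (blue) and on the median-ratio scale (orange), with dotted lines at the median of all tested genes. Kcnj14 lies farthest right, at 3.29 and 2.91, and Chrm2 farthest left, at -2.64 and -3.22.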

How the data were processed

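Left ventricular polyadenylated RNA was sequenced as paired strand-specific reads, per the labels' protocols. Values are TPM for each gene symbol as deposited, per the file headers. The submitters' processing notes name featureCounts 2.0.3, edgeR 3.40.2, GATK 4.2.6.1, STAR-Fusion 1.11.0 and the build mm8 without their roles. The aligner is not given in the sources used here, nor is the annotation. Groups follow the genotype labels. Replicate numbers are only names. By Ddx3y and Xist, overexpression replicate 1 came from another animal than the rest of its group. Nothing else says that libraries are separate animals, so p-values measure the spread between these libraries, which may in part be technical.

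TPM was filtered at a mean of 1, and log2(TPM + 1), which understates changes of low genes, was compared in limma 3.58.1 under R 4.3.3, with a trended prior, two-sided p-values, Benjamini-Hochberg adjustment and a threshold of 0.05. Folds divide mean TPM values. Exact permutation tests used all 20 orderings. Reads were recovered from the steps of TPM times length: with M21 lengths 52.7% of 9837 low genes came out whole within 0.05 reads, and all 10 members did, 4 of them at the M21 length and the others at a length searched within 50% of it, so reads are known up to a whole factor. Promoters came from RefSeq for 7 of 10 members. The procedure was tested on simulated data in which few genes changed, as many up as down. That simulation cannot show how either scale performs when many genes differ, as here.

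Members and lists were chosen with earlier results of these data known. Named genes were the members, Rbm20, Esr1, up to 4 called genes per direction in each related list and the 3 nearest profiles of Kcnj2, Kcnj3 and Kcnj11 (smallest root mean square difference of centred profiles). Ddx3y, Xist, Kcnj15, Myl7, Myl4, Sbk2, Smoc2, Kcna5 and Stard10 were added after their values were seen. Alternatives were other pseudocounts, filters, scalings, weights, voom on recovered reads and leaving out each library. Splicing is not analysed here. A few genes of the lists are counted but not reported here by name.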

Additional observations from a re-analysis of the deposited data

How the results depend on the processing

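Across 17 alternatives, Kcnj3, Kcnj11, Abcc8 and Abcc9 were called lower and Kcnk2 higher in each, with log2 differences of -3.13 to -2.19, -1.44 to -0.65, -1.72 to -0.83, -1.24 to -0.54 and 1.00 to 2.199. Kcnk3 was called lower under every scaling and lost its call only without control replicate 2 (adjusted p = 0.0695). Kcnj2 was called under no scaling and only without control replicate 1. Calls of Kcnj5, Kcnj8 and Kcnj12 depended on scaling. Genes called were 8443 on TPM (7316 higher, 1127 lower) and 5727 on the median-ratio scale (2755 higher, 2972 lower), and 5509 with voom on recovered reads on that scale, an alternative chosen after seeing the data. Members called higher were 1 instead of 2 on the median-ratio scale, with quantile normalization and with voom on the median-ratio scale, where Kcnj5 was not called. On the median-ratio scale, leaving out single libraries gave 1 to 2 members called higher, the 2 without overexpression replicate 2, where Kcnj5 had 0.77 (adjusted p = 0.0172). Kcnj12 changed sign to -0.49 on the median-ratio scale, -0.17 without mitochondrially encoded genes, -0.46 with quantile normalization, -0.075 with voom and -0.50 with voom on the median-ratio scale. Kcnj8, not called on TPM, spanned -0.25 to 0.031 as single libraries were left out, at 0.031 without overexpression replicate 3 and 0.030 without control replicate 1. The cause was not tested. With 1 library left out, the pair shares kept their directions, but the Kcnj2 share difference ranged from -27.9 to -5.85 and the Abcc8 share difference from -3.15 to -1.31 percentage points. No paired analysis was possible because the replicate numbers are not in the labels. With 3 libraries per group, no exact permutation p could fall below 0.1.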
